A study of Homo sapiens with 6 samples.

Results

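The peptidylarginine deiminase genes PADI1, PADI2 and PADI3 were examined in the human ovarian cancer cell line SK-OV-3, labelled wild type, with and without fulvic acid (FA), a water-soluble fraction of humic substances. They are 3 of the 459 genes in the deposited table of differentially expressed genes and were taken from it by symbol. RNA sequencing covered 3 libraries of cells given no treatment (control 1, 2 and 3) and 3 of cells exposed to FA at 100 µg/ml for 48 h (FA 1, 2 and 3). Whether libraries of 1 group stem from different cultures is not labelled, so their spread may be technical.

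Peptidylarginine deiminases are calcium-dependent enzymes that convert arginine residues within proteins to citrulline, a change that removes the positive charge of the side chain. PADI1 and PADI3 are known from the epidermis and the hair follicle, where filaggrin, keratins and trichohyalin are among their substrates. PADI2 is expressed more widely, in brain and muscle among other tissues, and modifies vimentin, myelin basic protein and histone H3. The related PADI4 acts mainly on nuclear proteins such as histones in granulocytes, and PADI6 is a protein of the oocyte.

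The genes were selected on the contrast between FA and control: listing required an absolute log2 fold change of about 1 and a false discovery rate (FDR) of about 0.01 or lower in the authors' own test. The decreases below are therefore a description, without a test. In the authors' deposited table all 3 genes were called lower with FA. By construction 100% of the listed genes were called, and 74.5% were called lower, so the shared direction of the 3 genes is not read as a result. Scaling on the listed genes alone centres them on 0, and then PADI1 was at a log2 fold change of 0.020 (TMM) or 0.012 (DESeq2 size factors), while PADI2 and PADI3 stayed negative. PADI4 and PADI6 were not among the 459 genes, which says nothing of their levels in these cells.

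The genes lie side by side on chromosome 1 (GRCh38, GENCODE release 29), within 217 kb from position 17066761 to 17284233. PADI2 (ENSG00000117115) spans 17066761 to 17119435 on the minus strand. PADI1 (ENSG00000142623) spans 17205126 to 17246005 on the plus strand, and PADI3 (ENSG00000142619) 17249098 to 17284233, also on the plus strand. PADI2 and PADI1 point away from each other, with 85.7 kb between their start sites, and 3092 bases separate the end of PADI1 from the start of PADI3. PADI4 follows 24.0 kb beyond PADI3, and PADI6 lies after it. The longest transcript of each member has 16 exons, and no exonic base of the 3 members is shared with another annotated gene.

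**Figure D1:**
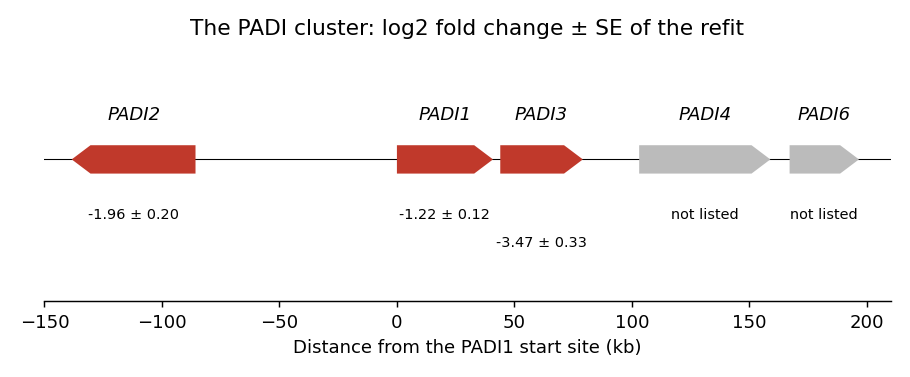
Map of the PADI cluster on chromosome 1, drawn to scale as distance from the PADI1 start site in kb, with arrows in the direction of transcription (red, in the table; grey, not listed). Under each listed gene stands its log2 fold change ± SE of the refit, from -1.22 ± 0.12 for PADI1 to -3.47 ± 0.33 for PADI3.

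Because the members are paralogs, the coding sequences were compared to see whether short reads could be assigned to the wrong gene. Over the aligned bases PADI1 and PADI3 were 68.8% identical, PADI1 and PADI2 64.8%, and PADI2 and PADI3 64.9%. The longest run of identical bases was 30 for PADI1 and PADI3, 23 for PADI1 and PADI2 and 19 for PADI2 and PADI3. No window of 50 bases was shared between any pair of the longest coding transcripts of the 5 PADI genes.

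Since the genes are neighbours, the 250 bases before the start sites were also set side by side. The RefSeq promoter table (GRCh38.p14) matched PADI2 and PADI1 of the 3 members. The motifs looked for on both strands were GCGTG (the core bound by AHR with ARNT), GGGCGG (the GC box bound by SP1), CCAAT (the box bound by NF-Y), TATAAA (the TATA box), TGANTCA (bound by AP-1), GGTCA (part of the site of estrogen receptors) and CACGTG (the E-box). Matches are in capitals.
PADI2, chr1:17119452-17119701, minus strand: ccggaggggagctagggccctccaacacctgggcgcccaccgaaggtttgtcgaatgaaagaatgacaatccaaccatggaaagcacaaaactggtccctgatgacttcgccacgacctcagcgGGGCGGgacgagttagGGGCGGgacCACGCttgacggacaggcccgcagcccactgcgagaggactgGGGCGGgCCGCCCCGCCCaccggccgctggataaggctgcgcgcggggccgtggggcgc
PADI1, chr1:17204878-17205127, plus strand: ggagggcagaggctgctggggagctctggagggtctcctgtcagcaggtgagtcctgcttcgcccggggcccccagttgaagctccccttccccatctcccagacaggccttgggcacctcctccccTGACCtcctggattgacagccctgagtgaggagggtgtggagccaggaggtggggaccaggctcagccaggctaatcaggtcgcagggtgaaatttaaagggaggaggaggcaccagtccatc

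The upstream windows differed in composition. That of PADI2 was 68.0% G or C with 24 CpG dinucleotides, and that of PADI1 was 64.0% G or C with 3. The medians over 35114 promoters were 58.0% and 11 CpG. PADI2 held 5 matches to GGGCGG between bases -126 and -42 from the start site, the last pair on the minus strand and sharing 1 base, and 1 match to GCGTG on the minus strand at -101 to -97. PADI1 held 1 match to GGTCA, on the minus strand at -123 to -119, and neither of the motifs found in PADI2. Of the 35114 windows, 42.6% held GGGCGG, 32.2% GCGTG and 32.7% GGTCA. The motifs CCAAT (32.0% of windows), TATAAA (10.7%), TGANTCA (6.57%) and CACGTG (6.35%) were found in neither gene. A match describes the letters only, and binding was not measured.

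FPKM are fragment counts scaled by transcript length and library size. Counts and FPKM together implied depths between 39900000 and 50900000 fragments, and the groups overlapped in depth. The control libraries differed along transcript GC content. The Spearman correlation of the deviation from the control mean with GC content was -0.76, 0.37 and 0.67 in control 1, 2 and 3. For the deviation from the FA mean it was 0.055, 0.18 and -0.25 in FA 1, 2 and 3. It was taken across 371 genes, which are not independent replicates. As the deviations are from the mean of the same 3 libraries of a group, they do not show which library is the unusual one. The 3 members had transcript GC contents of 54.2% to 56.1%, above those of 60.2% to 66.9% of the listed genes with an annotated transcript. Among the control libraries control 1 was the lowest for PADI1, the highest for PADI2 and in the middle for PADI3. Of the 10 markers written for an ovarian cancer line, and of the 7 for neutrophils and other leukocytes, none was in the table. The keratinocyte list had 1 of 6 in the table, KRT5, and the fibroblast list 1 of 5, COL1A1. The identity of the line could therefore not be checked here, and the part of other cells in the PADI signal was not tested.

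PADI1 was the most abundant member in all libraries. Its level was 24.3, 24.5 and 25.7 FPKM in control 1, 2 and 3, from 4052, 4607 and 4677 counts. With FA it was 10.6, 10.8 and 10.4 FPKM in FA 1, 2 and 3, from 1633, 1852 and 2042 counts. The groups did not overlap, as in 99.8% of all listed genes, and the lowest control library was 2.25 times the highest FA library. The libraries of each group were close together, with a coefficient of variation of 2.98% in the control and 1.67% in the FA libraries. The mean went from 24.8 ± 0.74 to 10.6 ± 0.18 FPKM (SD, n = 3), so that 42.8% remained. The refit over all listed genes gave a log2 fold change of -1.22 with a standard error (SE) of 0.12. The authors' deposited table gives -1.16 with an FDR of 4.8e-33. In bulk RNA, fewer cells expressing a gene and less RNA per cell cannot be told apart.

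PADI2, the broadly expressed member, was at 1.39, 1.33 and 1.39 FPKM in control 1, 2 and 3 and at 0.305, 0.404 and 0.330 FPKM in FA 1, 2 and 3. These rest on 264, 278 and 278 counts in the control libraries and on 53, 79 and 73 counts in the FA libraries. FA 2 was the highest of the treated libraries, and the lowest control library was still 3.29 times as high. The mean went from 1.37 ± 0.035 to 0.347 ± 0.052 FPKM (SD, n = 3), leaving 25.3% of the control level. The refit gave a log2 fold change of -1.96 (SE 0.20), and the authors' deposited table gives -1.90 with an FDR of 6.7e-17.

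PADI3, known for its part in hair shaft formation through trichohyalin, was the least abundant member. It was at 0.892, 0.957 and 0.778 FPKM in control 1, 2 and 3, from 124, 149 and 118 counts. With FA it was at 0.0990, 0.0339 and 0.0928 FPKM in FA 1, 2 and 3, from 13, 5 and 16 counts. FA 2 was the lowest, with an exact 95% Poisson interval of 1.62 to 11.7 counts. This interval overlaps those of FA 1 (6.92 to 22.2) and FA 3 (9.15 to 26.0). The differences between the treated libraries may thus lie within counting error, which was not tested. The lowest control library was 7.86 times the highest FA library. The mean went from 0.876 ± 0.090 to 0.0752 ± 0.036 FPKM (SD, n = 3), leaving 8.59%, and the coefficient of variation was 10.3% in the control and 47.7% in the FA libraries. The refit gave a log2 fold change of -3.47 (SE 0.33), an 11.05-fold lower level, and the authors' deposited table gives -3.42 with an FDR of 1.8e-15. Pooling the libraries of a group, 34 counts with FA against 391 in the control gave a remaining rate of 8.97% (exact 95% interval 6.12% to 12.7%). This interval covers counting error only.

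**Figure D2:**
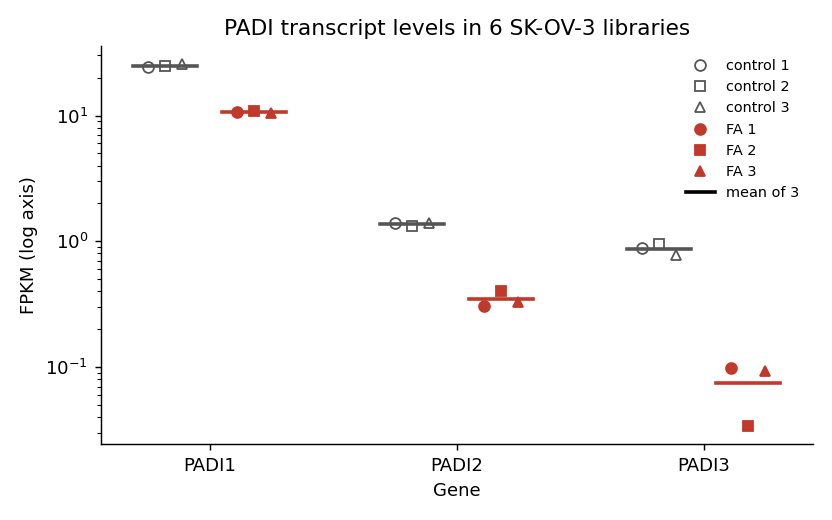
FPKM of PADI1, PADI2 and PADI3 in each library, on a log axis, with open grey symbols for control, filled red symbols for FA and a bar at the mean of 3 libraries. The FA symbols lie below the control symbols for each gene, and the spread of the FA libraries widens from PADI1 (10.4 to 10.8 FPKM) to PADI3 (0.0339 to 0.0990 FPKM).

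The order of levels per length, PADI1 above PADI2 above PADI3, held in 6 of 6 libraries. PADI1 exceeded PADI2 by 18.1 ± 0.62 times in the control and by 31.1 ± 4.1 times in the FA libraries (ratio of FPKM, SD, n = 3). PADI2 exceeded PADI3 by 1.58 ± 0.20 times in the control libraries, and in the FA libraries by 3.08, 11.9 and 3.56 times in FA 1, 2 and 3. PADI2 and PADI3 are neighbours in this order, and their FPKM ranges did not overlap in either group.

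The relative decrease ran in the opposite order to the level: PADI3 lost 91.4% of its mean control FPKM, PADI2 74.7% and PADI1 57.2%. On the log2 scale, the fold change of PADI3 minus that of PADI1 was -2.24 (SE 0.35), and PADI3 minus PADI2 was -1.51 (SE 0.38). PADI2 minus PADI1 was -0.73 (SE 0.23). These differences come from the contrast that chose the genes and are given without a test. They do not depend on how libraries are scaled against each other, since both genes of a pair are scaled alike. They do depend on the scale of low values: with log2(FPKM + 1) all 3 changed sign, to 0.35, 0.015 and 0.33, because a pseudocount of 1 exceeds the level of PADI3 in all libraries and that of PADI2 in the FA libraries.

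**Figure D3:**
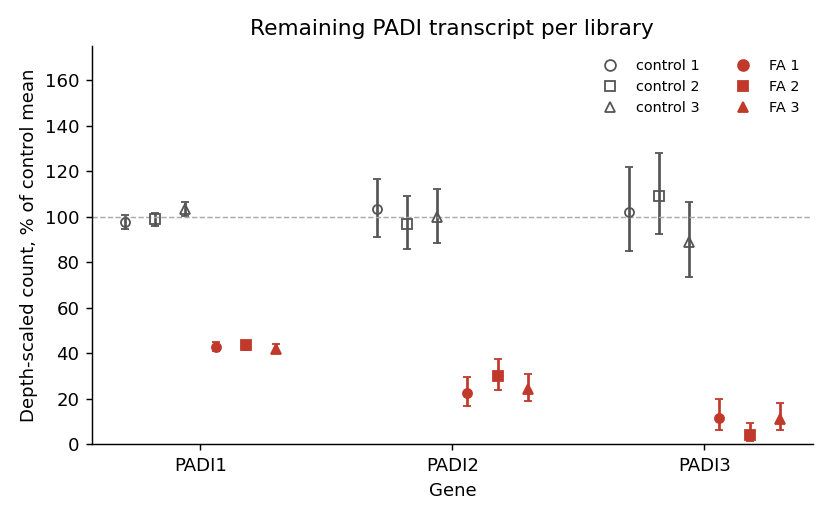
Counts scaled by depth as a percentage of the control mean, per gene and library, with exact 95% Poisson intervals as bars (counting error only). The FA libraries sit at 42.1% to 43.5% for PADI1, 22.6% to 30.1% for PADI2 and 4.00% to 11.6% for PADI3, with the intervals widening as counts fall.

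In absolute terms PADI1 carried most of the decrease. The summed FPKM of the 3 genes went from 27.1 ± 0.67 to 11.05 ± 0.18 (SD, n = 3), and PADI1 made up 88.6% of this difference, PADI2 6.39% and PADI3 5.00%. PADI1 made up 91.4%, 91.5% and 92.2% of the sum in control 1, 2 and 3 and 96.3%, 96.1% and 96.1% in FA 1, 2 and 3, so its share was higher in each treated library than in any control library. The share of PADI3 was 3.24 ± 0.40% in the control and 0.684 ± 0.33% in the FA libraries.

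Set against the other listed genes, the members were spread over the range of decreases. By the authors' log2 fold change PADI3 was at place 10 of the 342 lower genes in order of decrease, PADI2 was at place 78 and PADI1 at place 255. The median refitted log2 fold change was -1.42 over the 342 lower genes and -1.28 over all 459. PADI1 at -1.22 was thus close to the typical listed gene. PADI1, with -1.16, was the member nearest to the limit of the table, where the smallest listed decrease was that of SPEG. Genes on the far side of the limit were not analysed here. By mean control FPKM, PADI1 ranked 60th of the 459 genes, PADI2 282nd and PADI3 349th.

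**Figure D4:**
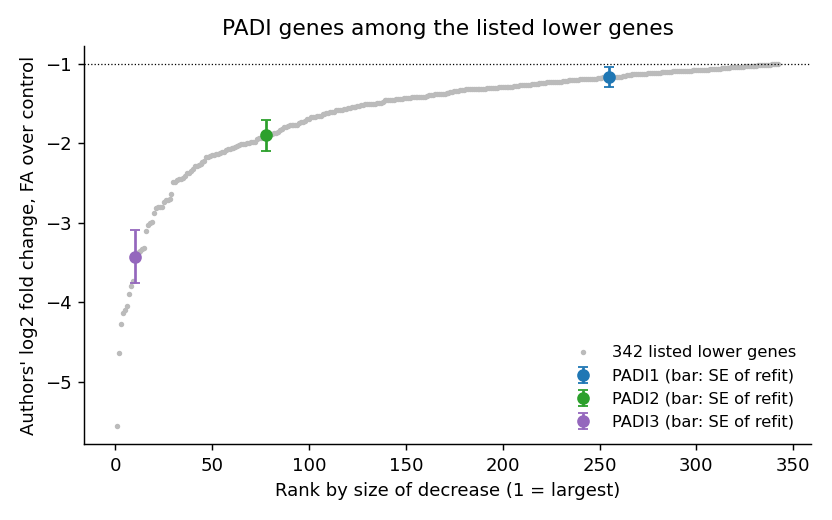
Authors' log2 fold change of the 342 listed lower genes (grey) against their rank by size of decrease, with the 3 PADI genes in colour and bars of ± 1 SE from the refit. PADI3 is at rank 10, PADI2 at rank 78 and PADI1 at rank 255, with the dotted line at the limit of -1.

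Each member was nearer to other genes of the table than to its paralogs in its profile over the 6 libraries, measured as the root mean square distance of log2(FPKM + 0.1) from the control mean among 371 annotated genes averaging 50 counts or more. For PADI1 the nearest were the annexin ANXA6 (0.074), the glycosyltransferase GALNT10 (0.075), DPYSL3 (0.076), the transcription factor E2F1 (0.079) and the potassium channel subunit KCNMB4 (0.086). For PADI2 they were the kinase PLK2 (0.099), the cytokine IL6 (0.13), the GABA receptor subunit GABRD (0.15), tissue factor F3 (0.16) and the guidance protein SLIT3 (0.17). For PADI3 they were serum amyloid SAA2 (0.14), whose counts may be shared with its close copy SAA1, the integrin ITGB3 (0.16), the matrix proteins SPARC (0.19) and THBS1 (0.26) and the collagenase MMP1 (0.22). These 5 had smaller refitted decreases (log2 fold change -2.498 to -2.87) than PADI3, since the pseudocount of 0.1 exceeds its FPKM in the FA libraries. PADI2 was at distance 0.37 from PADI1 and 0.62 from PADI3, and PADI1 at 0.93 from PADI3. In order of distance, PADI1 and PADI3 were at places 99 and 254 for PADI2. For PADI1, PADI2 and PADI3 were at places 207 and 267, and for PADI3, PADI2 and PADI1 were at places 50 and 160. The distance rests largely on the contrast that chose the genes, and few paralogs are set against many genes. That some genes were nearer is therefore a description and was not tested.

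On the chromosome, the 3 genes formed a run of adjacent protein-coding genes that were all listed. Of the 399 listed protein-coding genes with an annotated position, 3 such runs of 3 genes existed, and all 9 genes in them were lower. Of all 459 listed genes 74.5% were lower, and the 9 genes include the members, so this direction is not read as a result. Within 5 Mb of the cluster, 9 of 131 annotated protein-coding genes were listed, among them the members, which set the window. Without them 6 of 128 were listed (4.69%), against 2.00% of 19940 protein-coding genes on all chromosomes, a difference that was not tested. The nearest was EPHA2, an ephrin receptor kinase 911 kb away, at 61.3 ± 8.7 and 28.6 ± 2.8 FPKM in the control and FA libraries. On the other side the nearest was ALDH4A1, a mitochondrial enzyme of proline breakdown 1587 kb away, at 1.53 ± 0.61 and 0.648 ± 0.18 FPKM. CDA, a cytidine deaminase, and HSPG2, the proteoglycan perlecan, were also lower in the authors' deposited table, and DHRS3, a retinal reductase, and UBXN10 were higher. None of the 399 listed genes with a position lay between the members and EPHA2 or ALDH4A1. The other 60 listed genes carry no Ensembl identifier and were not placed.

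Genes around the deiminases were taken from written lists, of which few members were in the table. Of 14 proteins deiminated in epidermis and hair, 1 was listed: S100A3, a calcium-binding protein of the hair cuticle that PADI3 is known to modify, which was lower at 13.8 ± 2.3 and 4.26 ± 0.37 FPKM (log2 fold change -1.72, SE 0.20). Its neighbour S100A2 was the other listed gene of 14 S100 genes, at 62.9 ± 16.5 and 22.8 ± 2.2 FPKM. Of 22 hair keratins and hair follicle genes, KRT81 (1.70 ± 0.16 and 0.0840 ± 0.050 FPKM) and KRT86 (1.43 ± 0.47 and 0.670 ± 0.060 FPKM) were listed, both lower, and reads may be shared between these close copies. Of a list of 20 cornified envelope genes and transglutaminases, TGM2, a transglutaminase that also modifies protein side chains, was listed and lower, at 25.3 ± 3.9 and 7.03 ± 0.50 FPKM. As 74.5% of all listed genes were lower, the shared direction of these genes is not read as a result. Of all annotated protein-coding genes 2.00% were listed, and the counts of these lists were not tested against that share.

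Of 30 proteins deiminated elsewhere, COL1A1 was listed as lower (0.469 ± 0.080 and 0.214 ± 0.093 FPKM) and the histone H3 gene HIST1H3E as higher (0.742 ± 0.20 and 1.69 ± 0.45 FPKM). HIST1H3E has near-identical copies, so its counts are uncertain. Of 14 enzymes that handle free arginine and citrulline or methylate arginine, 2 were listed and both were higher. NOS3, which makes nitric oxide and free citrulline from arginine, stood at 0.239 ± 0.059 and 1.05 ± 0.16 FPKM, and ARG2, the mitochondrial arginase, at 1.20 ± 0.36 and 2.86 ± 0.45 FPKM. Of 14 transcription factors, those reported for PADI promoters and the AP-1 members, JUNB was listed, at 120.1 ± 20.9 and 50.9 ± 3.5 FPKM. Of 7 genes of the AHR pathway, which the study's title touches through CYP1A1, 5 were listed and all 5 were higher. The medians of the lists with at least 3 listed members were -1.90 for the PADI family and 1.84 for the AHR pathway (authors' log2 fold change). The listed PADI genes are the members themselves, chosen on this contrast, so their median is a description and not a result about the family. The 5 AHR genes and both arginine enzymes were higher in a table where 74.5% of genes were lower. The lists were written with earlier results of these data known, so these directions are a description. They were not tested against the rest of the table.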

How the data were processed

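The deposited table gives, per the file headers, raw counts per gene and library, FPKM values, an FDR (an adjusted p-value) and a log2 fold change of FA over control. All were made by the authors, with GRCh38 named in the submitters' processing notes. Sources used here name no aligner, counting tool, strand setting or test. Trizol extraction and oligo(dT) capture are stated per the labels' protocols. The members and lists were chosen with earlier results of these data known, and names follow a rule written beforehand: the members, listed genes of each list, neighbours within 5 Mb and the 5 nearest profiles.

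Relative depth was taken from counts over FPKM in 180 genes with at least 200 counts per library, and its absolute scale from 16 genes with a single transcript. A quasi-likelihood refit of the counts of all 459 genes used edgeR 4.0.16 in R 4.3.3, with library sizes equal to this depth. The SE is the absolute log2 fold change over the square root of the F statistic. The fit was run on simulated counts in which only part of the genes changed, as many raised as lowered. That setting differs from a table of genes selected as changed, so the run does not check the SE for these genes. Counts over FPKM implied lengths of 3844 to 3845 bases for PADI1, 4223 to 4373 for PADI2 and 3191 to 3386 for PADI3, against longest transcripts of 3846, 4345 and 3189. Positions are from GENCODE release 29 (Ensembl 94). Exact intervals used scipy 1.17.1. A coding sequence comparison is given by its identity only.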

Additional observations from a re-analysis of the deposited data

How the results depend on the processing

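Scaling by the listed genes alone centres them on 0, moving the median log2 fold change by 1.24 with both TMM and DESeq2 size factors. With TMM the log2 fold changes of PADI1, PADI2 and PADI3 were 0.020, -0.71 and -2.23, and with DESeq2 size factors 0.012, -0.72 and -2.24, so PADI1 changed sign. Column totals moved the median by 0.24 and gave -0.99 for PADI1 and -1.72 for PADI2. The authors' library factors moved it by 0.058 and gave -1.16 for PADI1. Differences of group means of log2(FPKM + 1) were -1.15, -0.82 and -0.80 for PADI1, PADI2 and PADI3, and the differences of PADI3 from PADI1, of PADI3 from PADI2 and of PADI2 from PADI1 reversed to 0.35, 0.015 and 0.33. With log2(FPKM + 0.1), PADI2 and PADI3 were at -1.73 and -2.495, PADI3 minus PADI1 at -1.28, PADI3 minus PADI2 at -0.77 and PADI2 minus PADI1 at -0.51. The share of PADI1 with FA was 95.9% of counts.

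Leaving out each library gave -1.24 to -1.20 for PADI1, -2.08 to -1.88 for PADI2 and -3.69 to -3.12 for PADI3. The differences ranged from -2.48 to -1.88 for PADI3 minus PADI1, from -1.79 to -1.03 for PADI3 minus PADI2 and from -0.85 to -0.65 for PADI2 minus PADI1, and the share of PADI1 from 91.4% to 91.8% in the control and 96.1% to 96.2% in the FA libraries. Without control 1 the 3 genes were at -1.24, -1.93 and -3.45. Same-numbered libraries share only a number: their deviations correlated at 0.014, 0.11 and -0.16 over 418 genes. With a replicate block the values were -1.22, -1.96 and -3.48. The DESeq2 fit, the filter and the block moved none of the 6 log2 values beyond 1 SD. Without FA 2, where PADI3 had 5 counts, its log2 fold change was -3.12, and its low counts with FA limit the precision of this value.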

Other observations

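The other runs of 3 adjacent listed protein-coding genes belonged to families induced by interferon. On chromosome 11 the membrane proteins IFITM2, IFITM1 and IFITM3, which restrict virus entry, had refitted log2 fold changes of -1.48 (SE 0.16), -1.72 (SE 0.17) and -1.47 (SE 0.16) within 19.9 kb. On chromosome 12 the oligoadenylate synthetases OAS1, OAS3 and OAS2, which activate RNase L, had -1.62 (SE 0.24), -1.45 (SE 0.14) and -1.38 (SE 0.29) within 105 kb. In these runs the fold changes of the members differed by at most 0.25, and in the PADI run by 2.24. The 24 runs of 2 adjacent listed genes were not compared as a set. Among them KRT86 and KRT81 had refitted log2 fold changes of -1.20 (SE 0.27) and -4.31 (SE 0.35), further apart than the PADI members. A wide spread within a run is thus not particular to the PADI genes. The runs were looked for after the PADI values were seen, reads may be shared between the close IFITM copies, and the difference between runs was not tested.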
